A study of Mus musculus with 2 samples.

Results

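The SR proteins and the heterogeneous nuclear ribonucleoproteins (hnRNPs) were followed in total RNA from the left cerebral cortex. The members were all genes with a symbol of the form Srsf plus a number or Hnrnp plus letters or digits and at least 1 transcript that the GENCODE M21 annotation types as protein coding. This rule took in 31 of 55450 annotated genes, 11 SR genes and 20 hnRNP genes, which carry 282 annotated transcripts. The series holds 1 group, female B6CASTF1/J mice aged 2 months, a cross of the laboratory strain C57BL/6J with the wild-derived CAST/EiJ, with 2 biological replicates and no treatment. Each library started from 300 ng of RNA and carried synthetic ERCC spike-ins. The labels list 2 separate tissue samples, yet 1 donor record stands for both, and the spread between replicates may therefore be technical. With 1 group there is no comparison between conditions and no p-value. Levels, transcript shares and their spread over the replicates are described here.

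SR proteins bind exonic sequences in pre-mRNA through RNA recognition motifs and recruit the splicing machinery through a domain rich in arginine and serine. The hnRNPs coat nascent transcripts, and many of them hold back splice sites, package RNA or carry it out of the nucleus. Genes of both families are known for limiting their own output by splicing: a transcript takes up an exon with an early stop codon (a "poison exon"), splices an intron after the normal stop, or keeps an intron, and such RNA is degraded by nonsense-mediated decay (NMD) or held in the nucleus. The annotation gives these forms the types nonsense_mediated_decay and retained_intron. Their summed TPM as a percent of the TPM of all transcripts of the gene is called the unproductive share here. The types are annotation labels; neither decay nor protein was measured, and total RNA does not separate the nucleus from the cytoplasm.

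In 7 members, 5 SR and 2 hnRNP genes, the annotated stop codon of at least 1 NMD transcript lies in an exon that overlaps no exon of any coding transcript of that gene. The coding part of each such exon, from its first base to the end of the stop codon, is printed 5′ to 3′ on the strand of the gene, since it holds the stop codon on which the NMD type rests. Sequence and coordinates come from GENCODE M21 on mm10, and the capitals mark the stop codon.
Srsf3, exon of 456 bases, chr17:29039454-29039487, plus strand: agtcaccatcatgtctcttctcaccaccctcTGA
Srsf7, exon of 460 bases, chr17:80205054-80205081, minus strand: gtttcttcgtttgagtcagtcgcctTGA
Srsf9, exon of 358 bases, chr5:115328347-115328428, plus strand: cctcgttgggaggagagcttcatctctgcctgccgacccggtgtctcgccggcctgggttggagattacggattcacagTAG
Srsf4, exon of 207 bases, chr4:131884276-131884390, plus strand: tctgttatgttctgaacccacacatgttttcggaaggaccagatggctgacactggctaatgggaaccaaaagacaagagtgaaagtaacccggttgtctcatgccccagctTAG
Srsf11, first exon of 109 bases, chr3:158024209-158024231, minus strand: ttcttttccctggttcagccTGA
Srsf11, second exon of 117 bases, chr3:158023310-158023359, minus strand: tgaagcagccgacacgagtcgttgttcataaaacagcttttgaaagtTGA
Hnrnpll, exon of 83 bases, chr17:80044976-80045022, minus strand: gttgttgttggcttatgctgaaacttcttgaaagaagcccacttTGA
Hnrnpl, exon of 70 bases, chr7:28817335-28817393, plus strand: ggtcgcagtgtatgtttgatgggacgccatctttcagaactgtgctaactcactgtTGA

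The stop codon ends 34 bases into the Srsf3 exon and 28 bases into the Srsf7 exon, so most of these long exons lies after it. In Srsf9 it ends at base 82, in Srsf4 at base 115 and in Hnrnpll at base 47. Of the 8 exons, 6 end their reading frame with TGA and those of Srsf9 and Srsf4 with TAG.

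**Figure D1:**
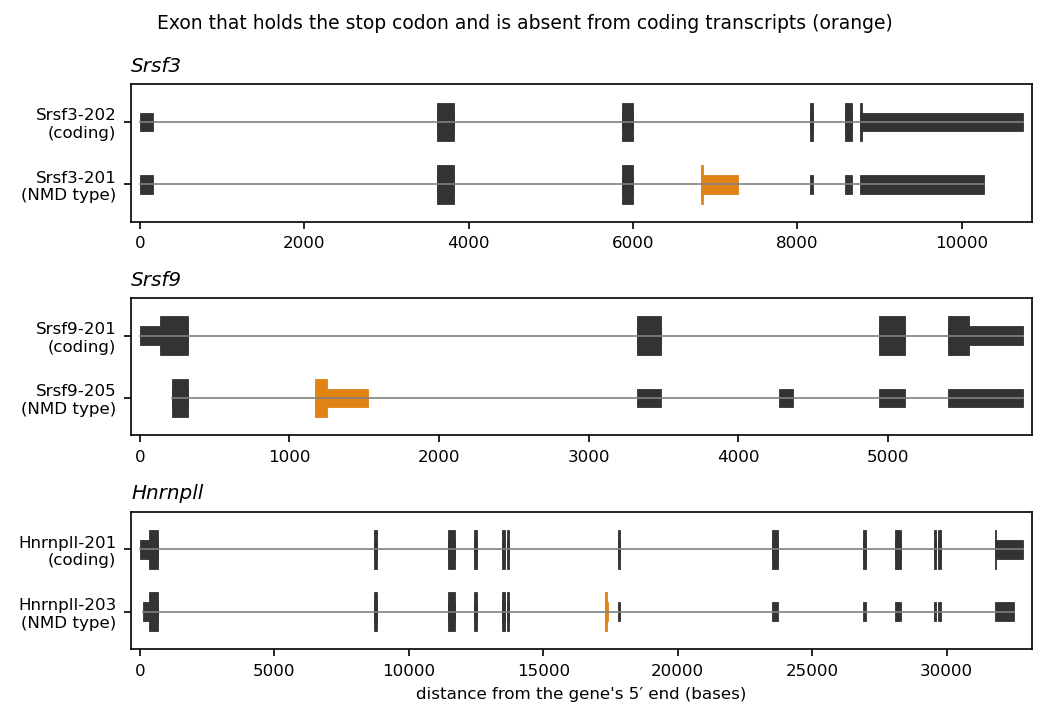
Exons of a coding and an NMD transcript of Srsf3, Srsf9 and Hnrnpll, by distance from the 5′ end of the gene in bases; tall boxes are annotated coding sequence, low boxes untranslated parts, and orange marks the exon that holds the stop codon of the NMD transcript. The orange exons of 456, 358 and 83 bases lie between exons that the coding transcripts join directly.

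Members were expressed well above the typical gene. Their median level was 60.7 TPM, a unit that corrects for transcript length and depth, against 15.7 TPM for the 13119 genes with a coding transcript that reached a mean of 1 TPM, and 30 of 31 members lay above that value. The 20 hnRNP genes had a median of 73.8 TPM and ranged from 24 to 258 TPM. The 11 SR genes had a median of 50.2 TPM and ranged from 10.5 to 155 TPM. Expected counts per member and library lay between 390 and 11829. In bulk tissue, fewer cells of a type and less RNA per cell cannot be told apart. The libraries hold 31196858 and 32292150 expected counts, and the markers fit the tissue label: Snap25 of neurons stood at 1327 ± 30.2 TPM (SD, n = 2), Slc17a7 of excitatory neurons at 549.5 ± 18 TPM, Mbp of oligodendrocytes at 319 ± 22.3 TPM and Flt1 of endothelium at 16.2 TPM in both libraries, while Ttr of the choroid plexus differed, with 6.1 and 34.3 TPM.

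Among the hnRNPs, Hnrnpk, a poly(C)-binding protein (chromosome 13, 58391142 to 58403343, minus strand), was highest, with 273.55 TPM in replicate 1 and 242 TPM in replicate 2. Hnrnpa2b1, which binds RNA that is carried into neurites (chromosome 6, 51460932 to 51469894, minus strand), had 218 and 209 TPM. These were followed by Hnrnpl, a binder of CA-rich RNA (chromosome 7, 28808541 to 28822266, plus strand), with 209 and 185 TPM. Hnrnpl overlapped with Hnrnpu, a nuclear matrix protein (chromosome 1, 178321108 to 178337797, minus strand), at 201 and 176 TPM. The order of the first, the second and the third place was the same in both libraries. Hnrnpa3 had 133 and 121 TPM, Hnrnph1, a binder of G-rich RNA, 126 and 117 TPM, and Hnrnpa1, which blocks splice sites, 108 and 106 TPM. The hnRNP gene at the low end was Hnrnph3 with 25.8 and 22.1 TPM, below Hnrnpll, a regulator of exon skipping in lymphocytes, with 29.8 and 27.4 TPM. In the read-based tables the order of the pair differed between the replicates, with 47.1 and 43.1 TPM for Hnrnph3 and 45.7 and 43.9 TPM for Hnrnpll.

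Srsf5 (chromosome 12, 80945504 to 80950507, plus strand) led the SR genes with 159 and 152 TPM. Srsf1, the founding member of the family, had 85.9 and 81.3 TPM, and Srsf11, an SR-related protein, 87.1 and 78.2 TPM, so these values overlapped. Srsf2 had 66.3 and 64.1 TPM, Srsf3 56 and 48.8 TPM, Srsf7 51.1 and 49.4 TPM and Srsf6 47.5 and 46.6 TPM. Srsf10 had 34.5 and 30.3 TPM, Srsf9 31.9 and 29.1 TPM and Srsf4 30.3 TPM in both libraries. Srsf12 was lowest of all members, with 11.1 and 9.9 TPM. Of the 30 pairs of neighbours in the order of all members, 15 had overlapping ranges over the 2 libraries. All members were lower in TPM in replicate 2, so an overlap does not mean that the order changed. Hnrnpl stood above Hnrnpu, and Hnrnpf above Srsf3, in both libraries despite the overlap, while Srsf1 and Srsf11 changed places.

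**Figure D2:**
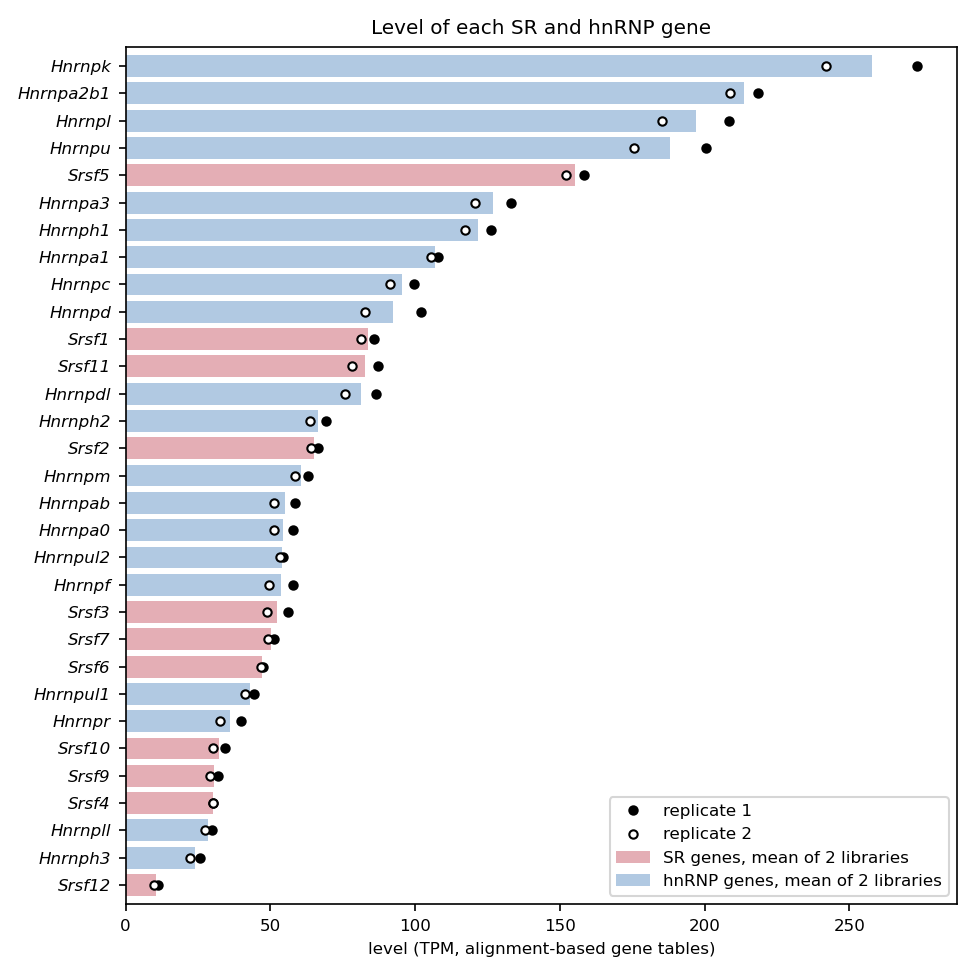
Level of each of the 31 genes in TPM; bars are the mean of 2 libraries, filled and open circles are replicates 1 and 2. Hnrnpk, Hnrnpa2b1, Hnrnpl and Hnrnpu lie at 176 TPM or more in both libraries, and Srsf12 is lowest at 11.1 and 9.9 TPM.

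All 31 members had a lower TPM in replicate 2, as had 74.6% of the coding genes at 1 TPM or more. On TMM-scaled counts 22 of 31 members were lower in replicate 2, with a median log2 ratio of -0.03 against 0.00 over all 18540 genes whose mean count reached 10. The ratios of the members ran from -0.17 for Hnrnpdl (95% interval -0.23 to -0.10) to 0.08 for Srsf6 (0.01 to 0.16). A gene was called different where its exact Clopper-Pearson interval lay wholly beyond 2-fold, which covers counting error only. Of the 31 members, 0 were called, beside 0.302% of all genes tested. At a limit of 1.5-fold, 0 members and 0.475% of all genes were called.

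Most members gave a larger part of their TPM to unproductive types than the typical gene with such types. NMD or retained intron transcripts are annotated for 24 of 31 members. Hnrnpa0, Hnrnpab, Hnrnpf, Hnrnph1, Hnrnph2, Srsf10 and Srsf12 have neither, so no share can be given for them. Over the 24 the median share was 33.4%, against 15% over the 8387 genes with a coding transcript, an annotated transcript of either type and a level of at least 1 TPM. Of the 24, 15 (62.5%) lay above the upper quartile of all such genes, 30.6%, which by construction 25% of them exceed. The median of all such genes was exceeded by 19 of 24. The 15 comprised 7 of 9 SR genes and 8 of 15 hnRNP genes. By type, the median retained intron share was 29.1% over 8 SR and 6.92% over 14 hnRNP genes, against 12.7% over 7612 genes. The median NMD share was 12.5% in each family, against 4.9% over 3656 genes. In read-based estimated counts, the hnRNP median for both types together was 7.86%, below 8.7% over all genes. There the SR median was 51.9%, and 15 of 24 members exceeded the median of all genes. For NMD alone in that unit, the SR median of 3.4% lay below the 3.98% over all genes, and the hnRNP median was 15.8%. For retained introns alone it was 32.9% for SR and 3.07% for hnRNP genes, against 6.49% over all genes. The members also have more annotated transcripts of these types, with a median of 4 against 2. A limit of at least 3 such transcripts was chosen after seeing the data. Under it, 17 members had a median of 33.7% against 26.1% over 3845 genes. Of these 17, 3 lay above the upper quartile of 41.9%, a smaller part than the 25% of all such genes that exceed it by construction. The part of annotation depth in the difference was not tested.

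**Figure D3:**
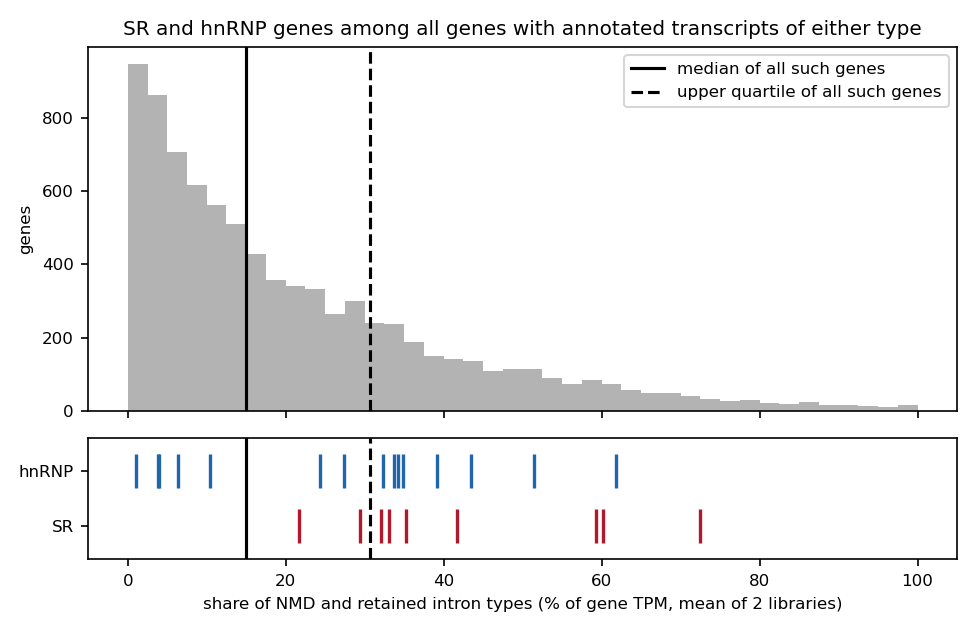
Upper panel, number of genes by unproductive share in percent of gene TPM (mean of 2 libraries) for all 8387 genes with an annotated transcript of either type; lower panel, each SR and hnRNP gene as a tick. The solid and dashed lines are the median of 15% and the upper quartile of 30.6%; 15 of 24 members lie to the right of the dashed line.

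The share separated members widely. In alignment-based TPM, Srsf11 stood highest, with 72.1% in replicate 1 and 72.7% in replicate 2. The first place is not fixed: in read-based TPM Srsf6 had 64.5% ± 0.239 and Srsf11 64.3% ± 1.74, and by expected counts Srsf9 had 65.2% ± 2.27 and Srsf11 60.7% ± 0.19. Hnrnpu had 61.9% and 61.8%, Srsf9 61.7% and 58.5%, and Srsf6 59.3% and 59.4%. Hnrnpll followed with 55.1% and 47.7% and Hnrnpa1 with 42.6% and 44.3%. The spread between replicates was small beside these differences: the SD over the 2 libraries had a median of 0.677 percentage points over members and a maximum of 5.67, in Hnrnph3. At the low end stood Hnrnpc, the core protein of hnRNP particles, with 0.843% and 1.21%. Hnrnpul2 had 3.64% and 4.11%, Hnrnpul1 4.16% and 3.85%. In alignment-based TPM, each of the 9 SR genes with an annotated type was at 21.7% or more on average, while the hnRNP genes reached from 1.02% to 61.9%. The family medians were 35.3% for SR and 32.4% for hnRNP genes here, and 40.7% and 24.4% in the read-based tables. The lowest SR share was 19.7% in read-based TPM, 13.4% in expected counts and 7.45% in read-based estimated counts. The lowest hnRNP shares there were 0.469%, 0.341% and 0.128%.

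**Figure D4:**
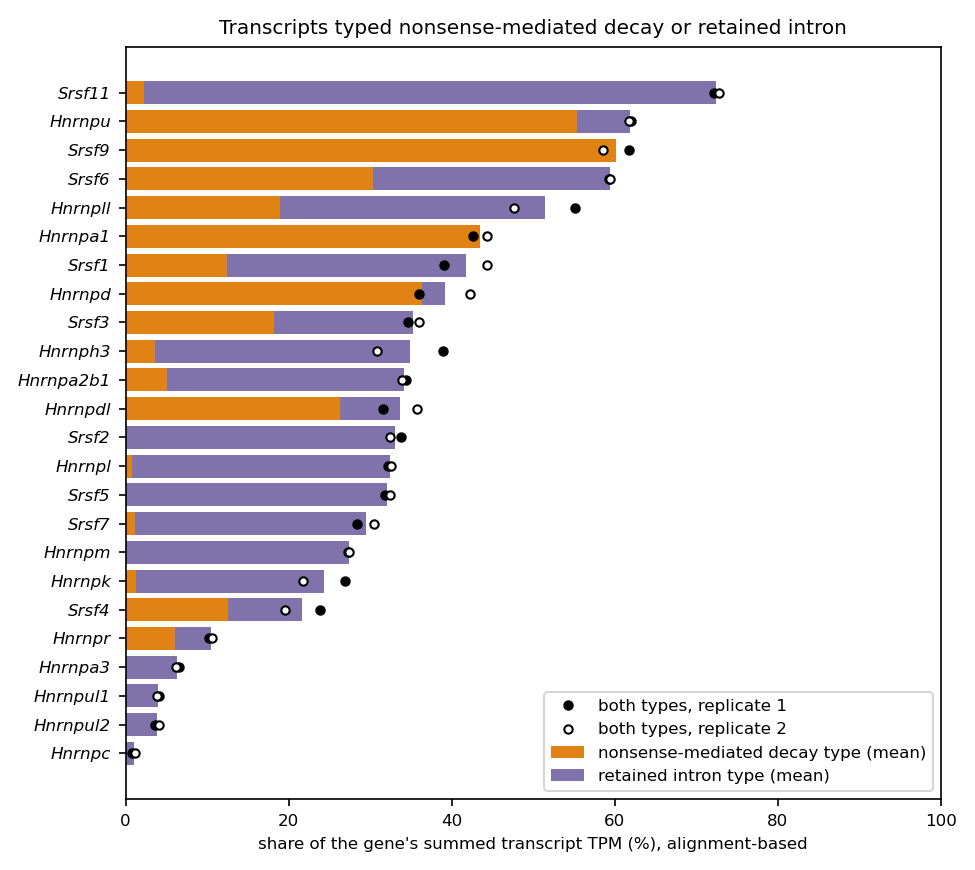
Share of the summed transcript TPM of each gene, in percent, from transcripts of the NMD type (orange) and the retained intron type (purple), stacked as means of 2 libraries; filled and open circles are the sum of both in replicates 1 and 2. Srsf11 is almost wholly retained intron, and Hnrnpc is lowest at 1.02%. Srsf9 and Hnrnpa1 are wholly NMD and have no annotated retained intron transcript.

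The balance of the 2 types differed from member to member. Retained intron transcripts held more TPM than NMD transcripts in 15 members and less in 9. Part of this count is fixed by the annotation, which gives NMD transcripts to 19 of the 24 members and retained intron transcripts to 22. Hnrnpa3, Hnrnpc, Hnrnpm, Hnrnpul1 and Hnrnpul2 have no NMD type, and Hnrnpa1 and Srsf9 no retained intron type. In Srsf11 they took 70.1% ± 0.82 (SD, n = 2) and NMD transcripts 2.3% ± 0.38. Hnrnpl (31.6% ± 0.16), Hnrnpa2b1 (29.1% ± 0.25), Srsf2 (33.1% ± 0.99) and Srsf5 (32.1% ± 0.41) also had mostly retained intron forms. NMD transcripts led in Srsf9 (60.1% ± 2.27), Hnrnpu (55.4% ± 0.9), Hnrnpa1 (43.5% ± 1.22), Hnrnpd (36.4% ± 4.24) and Hnrnpdl (26.3% ± 1.72). Srsf6 was split, with 30.4% ± 3.6 in NMD and 29% ± 3.7 in retained intron transcripts.

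The NMD transcripts of the members fall into 3 structural classes. In all 35 the stop codon lies at least 50 bases before the last exon junction, from 52 to 1801 bases, the usual mark by which a stop is read as early. The NMD type rests on the stop codon, so this is a property of the label and no separate result. In 11 transcripts of 7 genes the stop lies in one of the exons printed above, and these held 14.2% of the NMD TPM of all members. In 12 transcripts of 7 genes the stop is shared with a coding transcript of the gene, and these held 38.3%. Whether that coding transcript also splices the introns after this stop was not examined. Hnrnpa1-203 and Hnrnpa1-204 are of this class, with 27.9% and 15.5% of the gene's TPM. The other 12 transcripts, in 7 genes, held 47.5%, and Hnrnpu-206 alone took 41.7% of the TPM of Hnrnpu. Hnrnpu-206 has 17 exons and is tagged as a readthrough transcript in the annotation, as are the other NMD transcripts of Hnrnpu. Of the 35 transcripts, 16 are annotated without a known start and 9 were listed at 0 TPM in both libraries.

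In alignment-based TPM, Srsf9 had the largest share over an exon with an early stop, 63.3% and 59.2%. In read-based TPM Srsf9 had 68.9% and 67.7% and Srsf3 62.8% and 70.4%, so their order differed between the replicates. Its NMD transcript Srsf9-205, with 1392 bases in 6 exons, was the leading transcript of the gene, with 61.7% and 58.5% of its TPM, and the coding transcripts summed to 11.7 and 11.9 TPM. In Srsf3 the full-length NMD transcript Srsf3-201 took 17.2% and 19.1%, and the coding Srsf3-202 38.2% and 41.1%. Hnrnpll-203 took 22.9% in replicate 1 and 14.9% in replicate 2, the widest spread among the printed exons. Srsf4-203 and Srsf4-204, which hold forms of the same exon, took 4.52% and 8.21% in replicate 1 and 7.3% and 5.15% in replicate 2, and their sum was steady at 12.6% ± 0.189.

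The type of a transcript does not tell whether it holds the exon region. All transcripts of Srsf7 that overlap its printed exon, 1 of the NMD and 3 of the retained intron type, summed to 28.4% and 30.5%, which is the whole unproductive share of the gene, although the NMD transcript itself took 0.919% and 1.38%. In Srsf3, 6 transcripts overlap the exon, 2 NMD, 3 retained intron and 1 processed transcript, and summed to 31.5% ± 1.15, but to 66.6% ± 5.38 in the read-based tables. In Srsf11 the transcripts over the first exon summed to 13.3% ± 0.521 and those over the second to 19.9% ± 0.621, against 2.3% in NMD transcripts. The exon of Hnrnpl was covered by 3.51% ± 0.0995. The read-based values were 40.7% ± 0.96 for Srsf7, 16.6% ± 0.419 and 14.5% ± 0.179 for the exons of Srsf11, 27% ± 6.2 for Hnrnpll, 13.2% ± 2.3 for Srsf4 and 5.44% ± 1.22 for Hnrnpl. An overlap is not full inclusion, since a retained intron form covers the exon as part of a longer one.

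Retained intron transcripts were of mixed structure. Of the 75 annotated in the members, 28 hold at least 1 whole intron of a coding transcript inside an exon, and these took 43.8% of the retained intron TPM. In the other 47, among them all 11 of Srsf11, no exon holds a whole intron of a coding transcript. Srsf2-203 holds a whole intron of 1059 bases and took 33.8% and 32.4% of Srsf2. Srsf5-212 holds 2 introns with 1250 bases and took 27.5% and 27.9%. Srsf6-204 holds 1 of 1283 bases and took 26.3% and 31.6%. The NMD transcripts of Srsf2 were at 0 TPM in both libraries. For counting error alone, a count of 0 allows up to 0.128% and 0.124% of the gene's counts. As a share of TPM the limit is higher, since these transcripts of 620 and 1336 bases are shorter than Srsf2-201 with 1899. The sharing of reads between transcripts is not covered by that limit.

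Over coding transcripts alone the genes stood in another order. Hnrnpu was the fourth gene by its total and stood at place 20 here, with 38.2 and 33.6 TPM in coding transcripts. Srsf11 went from place 12 to 24, with 24.3 and 21.3 TPM. Srsf5 went from place 5 to 12, with 58.6 and 45.2 TPM. Hnrnpk, Hnrnpa2b1 and Hnrnpl kept the first places, and Hnrnpa3 with 124 and 113 TPM and Hnrnpc with 98.8 and 90.2 TPM came next. Hnrnph1, which has no NMD or retained intron type, had 63.3% ± 1.75 of its TPM in 15 transcripts typed processed_transcript, a class with no open reading frame assigned, and 44.7 and 44.5 TPM in coding ones. Srsf10 had 30.3% ± 5.02 in such transcripts.

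The leading transcript was not typed protein coding in 3 members, Hnrnpu, Srsf5 and Srsf9. They are 12.5% of the 24 members with an annotated type, close to the 10.5% of all 8387 genes. The leading form of Srsf5 was the processed transcript Srsf5-206, with 25.7% and 33.1%. In the read-based tables the count was 4, Hnrnpu, Srsf9, Srsf3 and Hnrnph3, which is 16.7% of the 24 beside 12.7% of all genes. Only Hnrnpu and Srsf9 were in both sets. By expected counts the lead of Hnrnpu was the coding Hnrnpu-201, with 49.2%. The 2 members led by a transcript that is not coding were then Srsf9, by Srsf9-205 with 65.2%, and Srsf5, by the retained intron form Srsf5-212 with 45.4%.

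Levels and shares were read from both kinds of table, the alignment-based ones used above and the read-based ones. Read-based levels were higher for 31 of 31 members, by a median of 1.57 times. Leaving 7SL, 7SK, spike-ins and transfer RNA out of the TPM sum raises the alignment-based level of every other gene by 1.51 and 1.56 times in replicates 1 and 2. The cause of the difference was not tested. The median unproductive share was 34.4%, against 17% over all genes. Shares differed between the tables by a median of 7.2 percentage points and by over 10 points in 9 of 24 members. Srsf3 had 35.3% ± 0.917 in the alignment-based and 56.5% ± 4.44 in the read-based tables, where Srsf3-201 led with 29% and 34.8%. Hnrnph3 had 34.9% ± 5.67 and 55.5% ± 1.33, through its NMD transcript at 3.66% ± 5.18 and 39.9% ± 1.15. Hnrnpd (39.2% and 22.1%), Hnrnpm (27.3% and 11.2%) and Hnrnpk (24.4% and 9.11%) went the other way. Of the 24 members, 11 lay above the upper quartile of all genes in both tables. The leading transcript differed between the tables in 12 of 31 members: Hnrnpk, Hnrnpa2b1, Hnrnpl, Hnrnpa3, Hnrnph1, Hnrnpd, Hnrnpab, Hnrnpf, Hnrnph3, Srsf3, Srsf5 and Srsf7. For higher levels, shares differing by over 10 points and differing leading transcripts, no count over all genes is given. These counts are therefore not read as particular to the members.

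**Figure D5:**
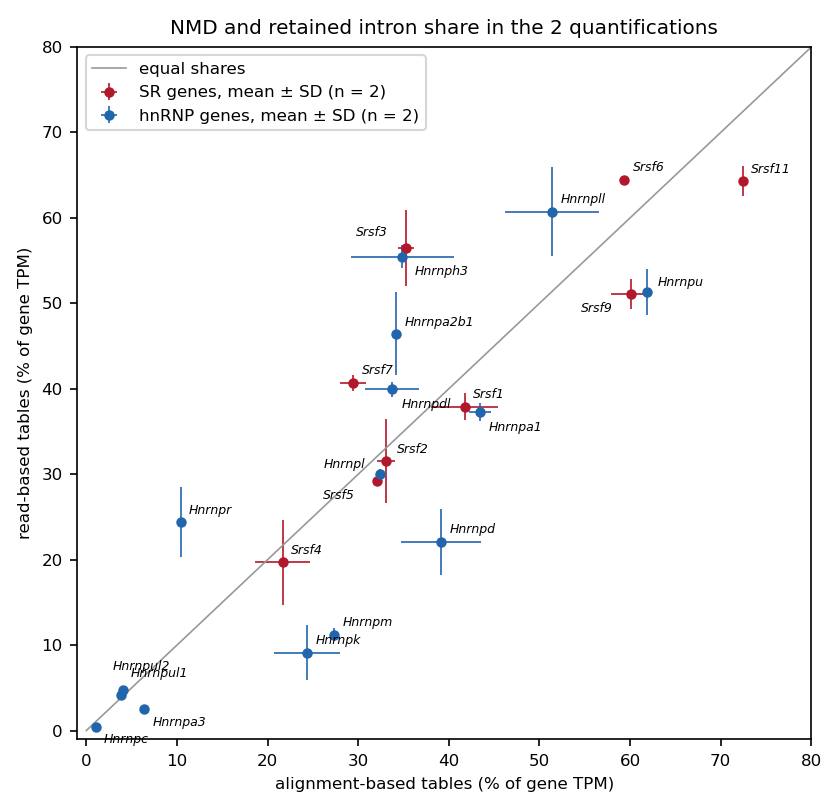
Unproductive share of each member in percent of gene TPM in the alignment-based (x axis) and the read-based tables (y axis), mean ± SD over 2 libraries; the line marks equal shares. Srsf3, Hnrnph3 and Hnrnpr lie above the line, Hnrnpd, Hnrnpm and Hnrnpk below it, and Srsf11, Hnrnpu, Srsf9 and Srsf6 are above 50% on both axes.

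The unit moved the shares as well. NMD and retained intron transcripts of the members are short, with median lengths of 980 and 846 bases against 1898 for coding ones, and TPM divides by length. As a share of expected counts the median over members was 25.2%, against 8.02% over all genes, and 19 of 24 members were lower than in TPM. Srsf1 went from 41.7% ± 3.71 to 13.4% ± 1.74, Hnrnpd from 39.2% ± 4.41 to 17.3% ± 1.4, and Hnrnpu from 61.9% ± 0.107 to 41.7% ± 0.665. Srsf5 went up, from 32.1% ± 0.413 to 54.1% ± 1.44. By expected counts the family medians were 48% for SR and 17.3% for hnRNP genes. Counts were not whole for 11 members, beyond 0.005, which is how reads shared with other genes appear; for Hnrnpk, Hnrnpl, Srsf5, Hnrnpa3, Hnrnpa1, Hnrnpc, Hnrnpm, Hnrnpf, Srsf3, Hnrnpr and Srsf10 the level is to that extent uncertain. Hnrnpm shares exons on its strand with March2, at 40.1 and 39.8 TPM, and its split is likewise uncertain.

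The kinases and the importer of SR proteins had the highest median unproductive share of the 5 lists of partner genes in alignment-based TPM. The kinases phosphorylate the domain rich in arginine and serine, and the importer carries SR proteins into the nucleus. All 8 lay above the median of all genes, with a list median of 53.4%. Srpk2 was most abundant at 80.9 ± 6.4 TPM, with a share of 50.5% ± 0.52. Clk1 had 59.6 ± 3.34 TPM and 80.5% ± 2.46, and Clk4 55.6 ± 2.79 TPM and 63.5% ± 4.04. Srpk3 was lowest at 4.2 ± 1.09 TPM. Clk1 thus stood above every member.

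All 10 SR-like splicing activators lay above the median of all genes too, with a list median of 30.0%. Srrm2, a scaffold of nuclear speckles, had 301 ± 19.5 TPM and a share of 31.4% ± 0.86. Acin1 had 102 ± 3.32 TPM and 34.1% ± 0.05, Son 97.5 ± 3.94 TPM and 28.3% ± 0.87, and Srrm4, the neural microexon regulator, was lowest in level at 13.4 ± 0.45 TPM. Of the hnRNP proteins under other symbols, 5 of 7 have an annotated type and 4 of these lay above the median of all genes. Pcbp2 had 221 ± 12.4 TPM and 13.3% in both libraries, and Pcbp1 76.8 ± 3.39 TPM with no annotated type. Rbmx was lowest at 22.9 ± 1.49 TPM.

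Splicing regulators of the nervous system combined high levels with low shares. Celf4 had 238 ± 13.9 TPM and a share of 11.1% ± 2.12, and the neuronal Rbfox3 and Rbfox1 had 151 ± 3.97 and 145 ± 2.64 TPM with no annotated type. Nova1 was lowest at 18.7 ± 2.4 TPM. Their median share was 9.75% over the 7 of 12 genes with an annotated type, and 2 of the 7 lay above the median of all genes. Factors of NMD and the exon junction complex were lower in level, with a median of 19.7 TPM, with Smg5 at 34.8 ± 1.15, Smg1 at 34.2 ± 1.46 TPM and Smg8 lowest at 6.92 ± 0.19 TPM. Of their 14 genes, 7 have an annotated type, with a median share of 18.3%, and 5 of them lay above the median of all genes. None of the 51 partner genes was called different between the replicates.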

How the data were processed

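Total RNA libraries of 2 cortex samples were analysed. The authors deposited alignment-based tables with an expected count and a TPM value for each gene and transcript, and read-based tables with an estimated count and a TPM value for each transcript, on mm10 with GENCODE M21, per the file lists of the libraries. Which tools made them is not given in the sources used here. TPM includes spike-ins and transfer RNA in its sum. Effective lengths are 99 bases below the length in the alignment-based and 340.1 and 342.1 bases in the read-based tables, which changes the weight of short transcripts. Reads of CAST/EiJ alleles were quantified against the C57BL/6J reference.

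Levels come from the gene tables and shares from the transcript tables, with types from the read-based names. Expected counts were rounded and scaled with TMM (edgeR 4.0.16, R 4.3.3), with a prior count of 0.5, a mean count of at least 10 and a 95% interval (scipy 1.17.1). Intervals and limits cover counting error only, since reads from PCR that carry no molecular identifier may copy 1 molecule. The interval rule was tested on simulated data with a variation set at 5%, which was not estimated from these libraries. It called 8 of 50 genes changed 2-fold, 50 of 50 changed 3-fold and 0 of 18350 unchanged genes. Transcript structures and stop codons were read from the GENCODE M21 annotation and transcript sequences, and an intron was counted as held where an exon covers it wholly. Described in full are the 8 highest and 3 lowest members, the 6 highest and 3 lowest shares, the members with a leading transcript that is not coding or differs between the tables, and the 3 highest genes and the lowest of each list of partner genes, of which 2 are not reported here. Members and lists were chosen with earlier results of these data known. Alternatives covered the tables, units, types, filters, scaling (DESeq2 1.42.0 size factors and totals) and each replicate.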

Additional observations from a re-analysis of the deposited data

How the results depend on the processing

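No paired analysis was possible because the series has 1 group. The median level of 60.7 TPM was 94.1 TPM in the read-based tables and 93.1 TPM after rescaling without 7SL, 7SK, spike-ins and transfer RNA, and 58.5 to 62.9 TPM with either replicate left out. The median unproductive share of 33.4% was 34.4% in the read-based tables, 25.2% in expected counts, 34.5% with processed transcripts added and 32.5% to 33% with either replicate left out. Without a minimum level and with at least 10 TPM it was fixed at 33.4%, since every member with a share lies above 10 TPM. It was 33.7% over genes with at least 3 such transcripts, an alternative chosen after seeing the data. The medians over all genes stayed below those of the members under each of these settings. The 0 members called between replicates stayed 0 with DESeq2 size factors, totals, read-based counts and a limit of 1.5-fold. Their number was also 0 with no minimum count, a setting that could not add or remove a member, since all have counts of at least 390. The count of members led by a transcript that is not coding was 4 in the read-based tables, 2 by expected counts and 3 to 4 with either replicate left out. Of single shares, 22 of 24 moved by more than the replicate SD in the read-based tables and 21 of 24 in counts, and 5 of 24 with processed transcripts added; the cause was not tested.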
